A study of Drosophila melanogaster with 8 samples.

Results

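Among the sites where NELF-E, a subunit of the Negative Elongation Factor, was found on chromatin in Kc167 cells, 372 promoters had a peak in both lists from mock-treated cells and in neither list from AGO2 knockdown cells. They were chosen from the peak lists themselves: peaks of the 4 lists that overlapped were merged into 8225 sites, and a site was kept if it lay within 500 bp of an annotated transcript start and more than 300 bp from any knockdown peak. The 372 mock-only promoters were 6.68% of the 5568 promoter sites that both mock lists held, and were drawn from 6717 promoter sites in all. Of 675 sites with peaks in both mock lists and no overlapping knockdown peak, 444 were at promoters, and 72 of these had a knockdown peak within 300 bp and were left out. The presence and absence of peaks chose these promoters, so their occupancy, score and fold enrichment are given as a description, without a test. With the groups exchanged, the same rule found 2 promoters, which were 0.0431% of the 4638 promoter sites of both knockdown lists.

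NELF-E was measured by ChIP-seq, the sequencing of DNA that an antibody brings down with the protein, in 2 libraries of siAGO2 cells and 2 libraries of mock cells. The siAGO2 cells received 100 pmol of an siRNA against AGO2, the Argonaute that carries small interfering RNAs in flies, and the mock cells went through the transfection with no siRNA, and both were collected 3 days later. All libraries came from Kc167, a single female Drosophila melanogaster line of embryonic origin, and nothing in the labels says whether the replicates were separate cultures. An input was sequenced beside each library and is part of the peak calls, but has no list of its own here.

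NELF binds RNA polymerase II soon after it has begun to transcribe and helps to hold it paused a short way downstream of the start, until the kinase P-TEFb releases the complex into elongation. In flies, paused promoters are often those of developmental and stimulus-responsive genes, with focused starts marked by an initiator (Inr), a TATA box or a Pause button and with the GAGA motif bound by GAGA factor. Promoters of broadly expressed genes more often hold the DNA replication-related element (DRE) or the Ohler motifs, and those of ribosomal protein genes hold the TCT initiator.

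The promoters below show these types among the mock-only promoters, in the RefSeq Release 6 genome (dm6), each from 60 bases before the nearest start to 50 bases from the start on. The first 6 are the highest-ranking of those that can be shown, and the others were chosen after the values were seen, as motif examples. None of the stretches shown holds an Ohler motif. Capitals mark matches to the motifs that are spelled out further on, and mtSSB had none of them in this stretch.
CG13654, chr3R:25209390-25209499, plus strand: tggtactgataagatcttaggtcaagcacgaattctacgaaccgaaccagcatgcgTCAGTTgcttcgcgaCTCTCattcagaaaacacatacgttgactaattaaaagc
sd, chrX:15813493-15813602, plus strand: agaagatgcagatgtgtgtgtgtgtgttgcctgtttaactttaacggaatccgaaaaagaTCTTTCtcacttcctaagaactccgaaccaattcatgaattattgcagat
Pfrx, chrX:19505853-19505962, plus strand: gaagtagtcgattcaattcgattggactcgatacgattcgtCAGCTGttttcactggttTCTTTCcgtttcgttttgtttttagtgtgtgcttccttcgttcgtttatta
mtSSB, chr3R:16205201-16205310, minus strand: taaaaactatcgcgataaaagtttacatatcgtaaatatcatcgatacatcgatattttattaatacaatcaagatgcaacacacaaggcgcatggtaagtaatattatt
spri, chrX:10493687-10493796, minus strand: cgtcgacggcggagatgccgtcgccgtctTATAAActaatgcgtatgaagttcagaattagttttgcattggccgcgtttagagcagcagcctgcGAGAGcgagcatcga
Ptp69D, chr3L:12734885-12734994, plus strand: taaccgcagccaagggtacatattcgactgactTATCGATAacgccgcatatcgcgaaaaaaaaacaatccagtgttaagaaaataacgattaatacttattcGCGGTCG
dpp, chr2L:2428312-2428421, plus strand: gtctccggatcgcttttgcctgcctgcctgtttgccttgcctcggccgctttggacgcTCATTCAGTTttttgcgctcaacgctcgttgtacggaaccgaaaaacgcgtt
eater, chr3R:27099630-27099739, minus strand: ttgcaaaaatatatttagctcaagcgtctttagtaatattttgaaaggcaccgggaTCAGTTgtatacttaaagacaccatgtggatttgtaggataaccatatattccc
CG10184, chr3R:23605446-23605555, minus strand: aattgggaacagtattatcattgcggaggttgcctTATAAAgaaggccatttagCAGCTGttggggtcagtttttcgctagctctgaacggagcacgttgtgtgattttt
PGRP-LB, chr3R:11457971-11458080, minus strand: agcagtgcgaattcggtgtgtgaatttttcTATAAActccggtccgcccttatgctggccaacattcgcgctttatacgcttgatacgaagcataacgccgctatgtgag
Hph, chr3R:5256977-5257086, plus strand: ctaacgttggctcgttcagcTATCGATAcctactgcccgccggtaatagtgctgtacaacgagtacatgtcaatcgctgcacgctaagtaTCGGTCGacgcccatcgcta
mRpL10, chr2L:203719-203828, plus strand: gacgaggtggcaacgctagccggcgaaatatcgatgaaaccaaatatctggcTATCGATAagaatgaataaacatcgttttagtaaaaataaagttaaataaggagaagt

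In CG13654 and eater the same Inr word, TCAGTT, began at position -4, counting the annotated start as 1 and the base before it as -1. The dpp promoter held 2 overlapping Inr words, at -2 and 3. TATA words began at -31 in spri, at -30 in PGRP-LB and at -25 in CG10184. Ptp69D and Hph each joined a DRE upstream of the start to a Pause button downstream of it, at 44 in Ptp69D and at 31 in Hph. A TCT word stood at the start of sd and of Pfrx, a pair of genes that make no ribosomal protein.

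The depth of the lists differed with the treatment. Peak lists hold no read totals, but the pileup of fragments under each summit and its background could be recovered from the deposited fold and p-value. The genome-wide background was 1.18 and 1.48 fragments in the siAGO2 libraries and 4.46 and 2.19 fragments in the mock libraries. The siAGO2 lists held 5904 and 6206 peaks, and the mock lists held 7944 and 6933 peaks. The depth of a library and its treatment cannot be told apart, because both siAGO2 libraries were shallower than both mock libraries. Of 10 genes used as marks of this hemocyte-like line, 8 had a promoter site in all 4 lists, among them srp, ush, Hml and Pxn, and NimC1 and He had none. The AGO2 promoter itself held a peak in all 4 lists, which is no check of the knockdown, since an siRNA acts on the mRNA.

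The mock-only promoters were weak NELF-E sites. Their fold enrichment, the fragments at the summit over the local background, had a median of 4.16 in mock 1 and 3.95 in mock 2, between extremes of 1.91 and 9.93 in mock 1 and of 1.91 and 8.77 in mock 2. The 4550 promoters in all 4 lists had median folds of 9.72 in mock 1 and 9.78 in mock 2. The median summit of a mock-only promoter held 36 fragments in mock 1 and 18 in mock 2, against 113 and 61 fragments at the promoters in all 4 lists. Their peaks were also narrow, with medians of 276.5 and 202 bp in mock 1 and mock 2, against 602 and 494 bp.

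Within its own list, the median mock-only promoter stood at percentile 24.6 of the scores in mock 1 and at percentile 13.1 in mock 2. None was above percentile 50 in both lists, 5 were above it in mock 1, and 171 were under percentile 25 in both. Among promoter sites of both mock lists, mock-only promoters were 40.1% of those in the lowest score decile of mock 2 (95% Wilson interval 35.2 to 45.2). They were 27.9% in the second decile, 15.0% in the third, 5.25% in the fourth and 1.37% in decile 5. From the sixth decile up there was none, which allows a share of up to 0.645% in the sixth (upper Wilson bound). Scores and lists come from the same rule, so these shares describe where the members lie and test nothing.

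**Figure D1:**
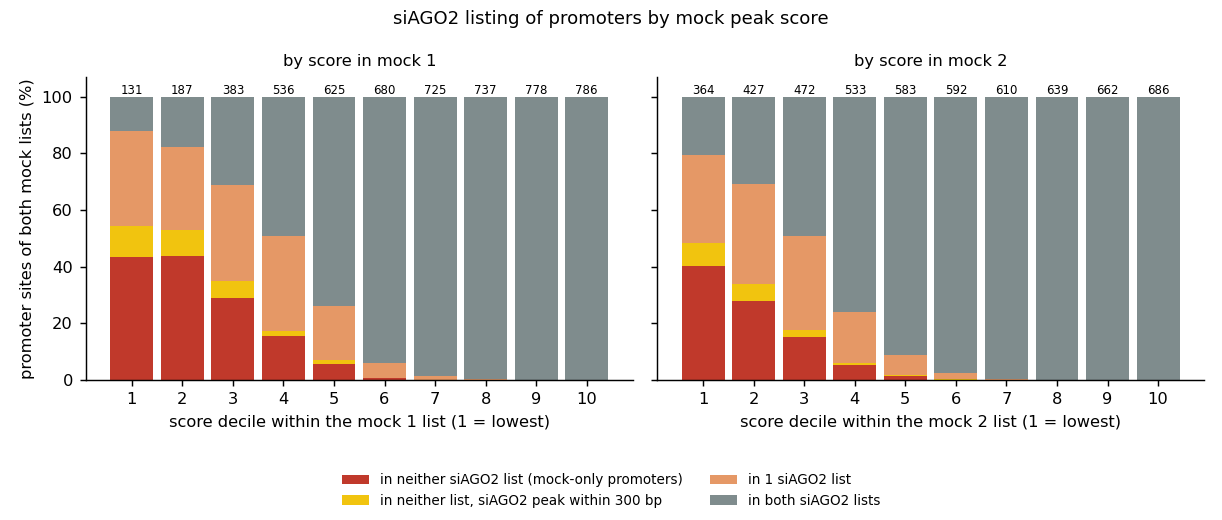
Share of the promoter sites of both mock lists (y axis, percent) that were in neither, in 1 or in both siAGO2 lists, by score decile within the mock 1 list (left) and the mock 2 list (right). Numbers above the bars are promoter sites. Mock-only promoters made up 40.1% of the lowest decile of mock 2 and none of the 5 highest.

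To place these values beside the depth, the fragments and the background of each mock summit were scaled to the depth of each siAGO2 library and the Poisson p-value was computed again. The median summit then held 9.56 fragments from mock 1 and 9.73 from mock 2 at the depth of siAGO2 1, where the listed summits had a median of 26 and a 5th percentile of 11. At the depth of siAGO2 2 it held 11.95 and 12.16 fragments, where the listed summits had a median of 29 and a 5th percentile of 12.

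The median scaled −log10 p was 4.51 from mock 1 and 4.59 from mock 2 at the depth of siAGO2 1, and 5.49 and 5.44 at that of siAGO2 2. The lowest −log10 p that the siAGO2 lists held was 3.03 and 2.97, and their 5th percentile was 5.24 and 5.20. In all 4 pairings 289 of the 372 mock-only promoters (77.7%, 73.2 to 81.6) reached the lowest listed value, and 66 (17.7%, 14.2 to 21.9) reached the 5th percentile. The same scaling was applied to 307 weak promoters in all 4 lists, chosen by their low mock 2 scores. From mock 2 at the depth of siAGO2 1 their median −log10 p was 4.95, against 8.01 in that list, and from mock 1 it was 6.59. The 4.95 and the 8.01 were set in part by the choice, which asked for a low mock 2 score and a listed siAGO2 peak. From mock 2 at that depth the 5th percentile was reached by 40.1% of the weak promoters and by 36.0% of the mock-only promoters. From mock 1 these shares were 70.4% and 35.8%. At the depth of siAGO2 2 they were 70.0% and 55.6% from mock 2 and 79.8% and 52.7% from mock 1. The part of depth in the absence of the mock-only promoters was not tested. The scaling takes the depth from the background alone and adds no sampling error.

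**Figure D2:**
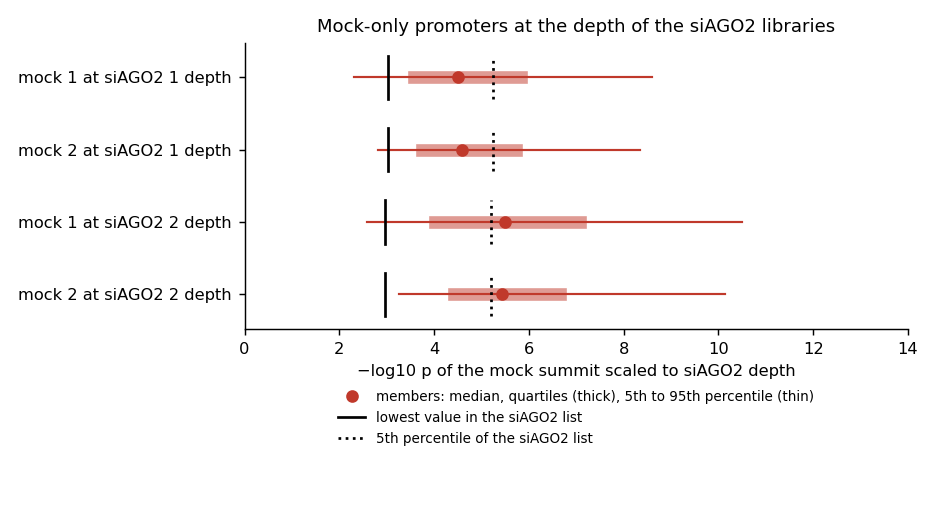
−log10 p of the mock summits of the 372 mock-only promoters after scaling to the depth of each siAGO2 library (x axis), for each pairing of libraries (rows). Points are medians, thick bars quartiles and thin bars the 5th to 95th percentiles, solid ticks mark the lowest value in the siAGO2 list and dotted ticks its 5th percentile. The medians, 4.51 to 5.49, lie between or near these ticks.

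The replicates gave a separate reading of the same choice. Of 1644 promoter sites with a peak in mock 1 and none in siAGO2 1, 31.6% had a peak in siAGO2 2 and 50.0% had one in mock 2. Of 715 promoter sites with a peak in mock 2 and none in siAGO2 2, 28.1% had a peak in siAGO2 1 and 89.5% had one in mock 1. Sites chosen the other way round were far fewer. Of 48 with a peak in siAGO2 1 and none in mock 1, 35.4% had a peak in siAGO2 2 and 27.1% in mock 2. Of 288 with a peak in siAGO2 2 and none in mock 2, 27.8% had a peak in siAGO2 1 and 74.0% in mock 1. Sites missing from 1 siAGO2 list were thus listed in the other in 28.1 to 31.6% of cases, whereas mock 1, the deepest library, held more of the sites chosen in replicate 2 than mock 2 held of those chosen in replicate 1.

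With each list cut to its 5904 highest-scoring peaks, the length of the shortest, there were 112 mock-only promoters and 63 found only in the knockdown lists. Of the 372 members 97 were among these 112. They had median folds of 5.52 in mock 1 and 4.70 in mock 2, and the other 275 had 3.79 and 3.69. The 97 included 24 of the 25 highest-ranking promoters, all but Lip4, and also dpp, eater, exd, inv and br. The cut and the ranking both use the scores, so the higher folds and ranks of the 97 were largely set in advance.

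CG13654, a gene of unknown function on 3R, ranked first of all by its mean percentile in the mock lists, with folds of 9.93 in mock 1 and 7.93 in mock 2. Its site, 25209267 to 25209615, covered the start, and the nearest knockdown peak was 24033 bp away. It stood at percentiles 53.6 and 42.3, so that even the first-ranked promoter was close to the middle of the lists. The scalloped gene sd, which encodes the TEAD transcription factor of the Hippo pathway, came second with folds of 7.26 in mock 1 and 6.78 in mock 2. The sd site lay 382 bp from a knockdown peak, and another site within 500 bp of a start of sd had a peak in all 4 lists.

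The other genes of the 25 are described by what they are known to do, with no list behind the order. Pfrx, which makes and degrades fructose 2,6-bisphosphate, had folds of 4.99 in mock 1 and 7.11 in mock 2. The promoter of mtSSB, whose product binds single-stranded mitochondrial DNA, had folds of 7.83 and 6.18 in mock 1 and mock 2. Galk, the galactokinase gene, had folds of 7.10 and 6.25. Hph encodes the prolyl hydroxylase that marks the hypoxia factor for degradation, and its folds were 6.51 and 5.47. The lipase gene Lip4 had the least even pair of the 25, with 4.09 in mock 1 and 8.77 in mock 2.

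The promoter of spri, which encodes a Ras effector with a guanine exchange domain, had folds of 7.15 in mock 1 and 4.70 in mock 2. At Ptp69D, a receptor tyrosine phosphatase of growing axons, the folds were 9.75 and 6.19. That site was just past the distance limit, with a knockdown peak 302 bp away and the start of SmD1 also within reach. Jupiter, a microtubule-associated protein, had 5.73 and 4.98, and fw, a selectin-like surface protein, had 6.68 and 7.51. Polr1H, a subunit of RNA polymerase I, had 6.71 and 6.91, among the most even pairs of the 25.

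Noncoding genes were nearest to 4 of the 25. The snoRNA gene snoRNA:Me18S-C1968 had folds of 5.11 in mock 1 and 5.24 in mock 2. At lncRNA:CR44409 the folds were 7.77 and 6.25, at lncRNA:CR44339 they were 4.71 and 6.34, and at lncRNA:CR44587 they were 5.77 and 5.89. These 3 long noncoding genes were named from the nearest start only, since none of their sites covered it. The remaining protein-coding genes were CG13531, CG11594, CG11360, MFS16, EcR, CG33552, CG12991, CG6333 and CG32195, with folds between 4.04 and 7.83 in mock 1 and between 4.13 and 7.47 in mock 2.

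**Figure D3:**
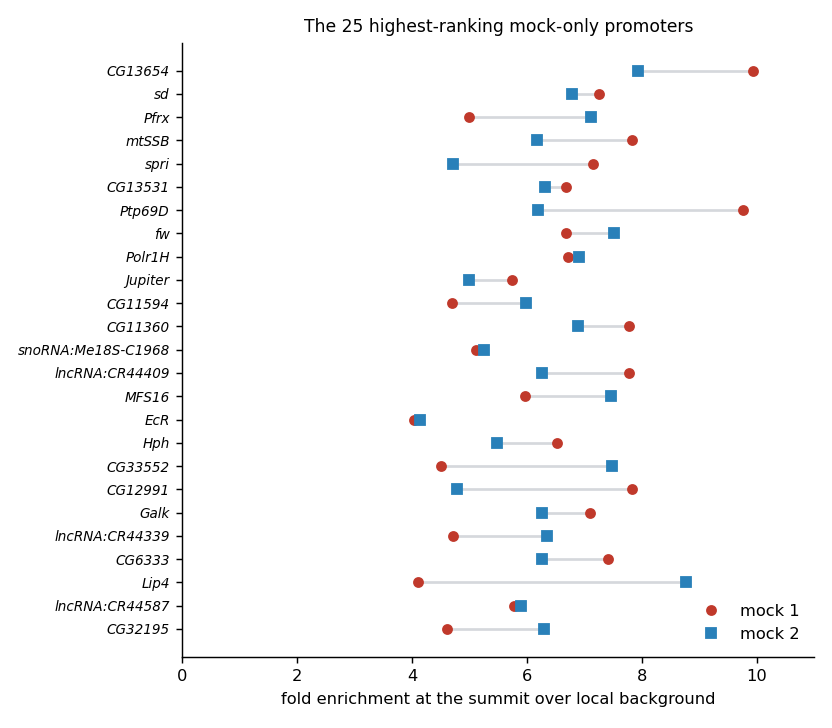
Fold enrichment at the summit over the local background (x axis) in mock 1 (circles) and mock 2 (squares) for the 25 mock-only promoters with the highest mean percentile (y axis, highest at the top), none of which had a peak in a siAGO2 list. The lowest and highest values are 4.04 and 9.93 in mock 1 and 4.13 and 8.77 in mock 2, and CG13654 is first.

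The nearest genes of the members were read against 14 lists of 436 annotated genes. Of these, 19 genes were nearest to a mock-only promoter and 234 to a promoter in all 4 lists. The JAK-STAT, JNK and cell death, Notch, and cell cycle lists had 0 members. Of their genes, 11 of 12, 18 of 24, 11 of 18 and 20 of 28 were nearest to a promoter in all 4 lists. Over the whole annotation 364 of 18358 genes were nearest to a member, and at that share lists this short would hold few or none. The counts of the other lists stand beside the same share.

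From the list on the ecdysone response, 3 of 18 genes were members and 12 were at a promoter in all 4 lists. EcR, the nuclear receptor for ecdysone, had folds of 4.04 in mock 1 and 4.13 in mock 2, with 78 and 40 fragments at its summit. The ecdysone-induced zinc finger gene br had 5.26 and 3.53, and the nuclear receptor gene Eip75B had 4.87 and 2.79. All 3 genes have several promoters, and each had another site in all 4 lists within 500 bp of one of its starts.

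From the list of patterning and homeodomain factors, 4 of 72 genes were members and 26 were at a promoter in all 4 lists. Besides sd these were exd, the cofactor of Hox proteins, with folds of 7.23 in mock 1 and 4.99 in mock 2, and inv, the paralogue of engrailed, with 3.57 and 3.48. The exd site also had the starts of eIF5 and CG46312 within reach. The Hox gene Scr had a pair of mock-only promoters, with folds of 3.33 and 4.39 at one and of 3.69 and 2.21 at the other, 963 bp apart and 42867 and 44169 bp from a knockdown peak.

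Of the Wnt, Hedgehog and BMP list 2 of 39 genes were members, and of the receptor tyrosine kinase and Ras list 2 of 33. The BMP ligand gene dpp had folds of 4.26 in mock 1 and 5.18 in mock 2 at this promoter. Another site within 500 bp of a start of dpp had a peak in all 4 lists. Wnt2, a Wnt ligand gene, had 3.59 and 4.56. The growth factor receptor genes Egfr and InR were near the bottom of the lists, with 2.48 and 2.62 at Egfr and 2.28 and 3.31 at InR. Nrg, an L1-type adhesion protein gene, had 4.24 and 3.39.

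Hemocyte and immune genes included eater, the receptor with which hemocytes take up bacteria, with folds of 6.68 in mock 1 and 4.70 in mock 2. Itgbn, an integrin beta subunit gene, had 5.07 and 4.39, and its site was 614 bp from a knockdown peak. PGRP-LB, an amidase that degrades peptidoglycan and so restrains the Imd pathway, had 3.43 and 4.02. These were 2 of 28 genes of the hemocyte and matrix list and 1 of 42 genes of the immune list, of which 16 and 14 were at a promoter in all 4 lists.

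Of 17 genes of the small RNA pathways, Dcr-2 alone was a member, and 5 were at a promoter in all 4 lists. Dcr-2 is the Dicer that cuts long double-stranded RNA into the small interfering RNAs that AGO2 carries. It had folds of 5.58 in mock 1 and 4.12 in mock 2, with 41 and 16 fragments at its summit and a knockdown peak no nearer than 8469 bp. The other listed members were alphaTub84D, an alpha-tubulin gene, with 8.90 and 3.39, the Polycomb gene ph-p with 4.46 and 4.60, and the insulator protein gene CTCF with 3.10 and 3.01.

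Across all members, the nearest gene was protein-coding at 348 and noncoding at 24. Noncoding genes were thus 6.45% of the members (4.37 to 9.42) and 2.70% of the promoters in all 4 lists (2.27 to 3.22), whereas they were 18.7% of the 23697 annotated starts. At the 574 promoters of both mock lists and 1 siAGO2 list they were 4.70% (3.25 to 6.76), and at the 307 weak promoters in all 4 lists, those at or under percentile 25 of mock 2, they were 3.58% (2.01 to 6.30), so the members overlapped both groups. Genes known only by a CG number were 27.7% of the members, 28.0% of the promoters in 1 siAGO2 list, 29.0% of the weak ones and 23.1% of all promoters in all 4 lists. No cytoplasmic ribosomal protein gene had a start near a mock-only promoter, though 80 of 92 had one near a promoter in all 4 lists. At the overall share of 364 of 18358 genes nearest to a member, 92 genes would hold few or none. The members' interval (0 to 1.02%) overlapped those of the weak promoters (0.326%, 0.058 to 1.82) and of the promoters in 1 siAGO2 list (1.22%, 0.592 to 2.50). Mitochondrial ribosomal protein genes were nearest to 9 members (2.42%, 1.28 to 4.53) and to 18 promoters in all 4 lists (0.396%, 0.250 to 0.625), a class picked out after its values were seen. The promoters in 1 siAGO2 list (1.22%, 0.592 to 2.50) and the weak promoters in all 4 lists (0.651%, 0.179 to 2.34) had intervals that overlapped that of the members.

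The 9 were mRpL10, mRpL19, mRpL27, mRpL30, mRpL36, mRpL40, mRpL51, mRpS2 and mRpS18C. Their folds lay between 3.11 and 5.79 in mock 1 and between 2.84 and 4.60 in mock 2. Counted by any start within reach, 11 of 73 such genes had a mock-only promoter and 37 had a promoter in all 4 lists, so most of the class was held by all lists.

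In all, 364 genes were nearest to the 372 promoters, and 7 genes had more than 1. The high-mobility-group gene bbx had 3, between which lay gaps of 163 and 685 bp. Desat1, Dpm3, Ptpmeg2, Scr, Sox102F and Ypel had a pair each. Both sites of Dpm3, of Ptpmeg2 and of Ypel had identical motif matches, as sites assigned to the same start do. These pairs are thus neighbouring peaks at a shared start, whose window was counted for each site in the motif shares. Chromosome 4 held 5 of the members (1.34%, 0.575 to 3.11), 9 promoters in all 4 lists (0.198%, 0.104 to 0.376), 4 of the 307 weak promoters in all 4 lists (0.508 to 3.30%) and 0.772% of all annotated starts. The X chromosome held 15.3% of the members (12 to 19.3), 19.2% of the weak promoters in all 4 lists, 20.2% of all promoters in all 4 lists (19.1 to 21.4) and 16.5% of all annotated starts.

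Some of the genes had a knockdown NELF-E peak at another site near a start. At 91 of the 372, another site with a knockdown peak lay within 500 bp of a start of the same gene. That start need not differ from the one assigned to the mock-only site. At 81 of the 91 such a site was in all 4 lists, and at 65 a knockdown peak overlapped the gene itself. For 31 of the 91 the very start assigned to the mock-only site lay within 500 bp of a knockdown peak. The other 281 were at genes with no site of a knockdown peak within 500 bp of a start. Genes of the 91 had a median length of 8391 bp, against 2705 bp for those of the 281.

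The sites of these 91 promoters also lay differently around the start, a contrast to which the distance limit applies. Every member site had to lie over 300 bp from a knockdown peak. The assigned start was within 500 bp of such a peak at 31 of the 91 and at 0 of the 281. Sites of the 91 covered the start in 58.2% of cases (48.0 to 67.8), against 77.2% of the 281 (72.0 to 81.7). The mock 2 summit lay downstream of the start in 62.6% (52.4 to 71.9), against 81.9% (76.9 to 85.9). GAGA words were found in 46.2% (36.3 to 56.3) and 32.7% (27.5 to 38.4), with intervals that overlap.

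Over all members, 96 lay within 1500 bp of a site in all 4 lists and 45 within 5000 bp of another member. The median distance to the nearest knockdown peak was 3306 bp, with 94 members over 10000 bp away and 93 at 1000 bp or less. Just inside the limit of 300 bp were Ptp69D at 302 bp, Cdk12 at 305 bp with folds of 3.57 and 3.22, and Hph at 309 bp. Just outside were lncRNA:CR44218 at 293 bp with folds of 3.44 and 2.94, RfC38 at 295 bp with 5.96 and 4.23, and CG31431 at 299 bp with 6.32 and 5.69.

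At the limit of 500 bp to a start, the sites just inside were nearest to asRNA:CR43426 at 474 bp with folds of 4.49 and 3.94, bves at 480 bp with 3.83 and 3.94, and Acsl at 488 bp with 2.09 and 4.34. Just outside were sites near CG9135 at 501 bp with 2.48 and 3.03, lncRNA:CR32218 at 518 bp with 4.26 and 5.41, and sncRNA:641 at 551 bp with 3.69 and 3.98. A site covered the start itself at 270 members (72.6%, 67.8 to 76.9), and the nearest start was over 100 bp away at 34.

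Most summits lay downstream of the start, the side on which polymerase pauses. The summit was downstream of the nearest start at 77.4% of the members in mock 1 (72.9 to 81.4) and at 77.2% in mock 2 (72.6 to 81.1), with medians of 78.5 and 82.5 bp. At the promoters in all 4 lists it was downstream at 88.8% in mock 1 and 87.2% in mock 2, with medians of 84.0 and 87.0 bp. The medians thus differed by less than the gap of 29.0 bp that separated the 2 mock summits of a typical member. The members had a larger share upstream, but only they had to lie over 300 bp from a knockdown peak. In mock 2 the summit was downstream at 62.6% of the 91 members described above and at 81.9% of the other 281 (76.9 to 85.9). It was downstream at 81.9% of the promoters of both mock lists and 1 siAGO2 list (78.5 to 84.8).

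A like gap was seen for coverage of the start, which was 96.3% at the promoters in all 4 lists (95.7 to 96.8). The same distance limit applies to it, and coverage was 81.4% at the promoters in 1 siAGO2 list (78.0 to 84.3). The 307 weak promoters in all 4 lists were read as well. They match the members in mock 2 only, since in mock 1 the members had a median percentile of 24.6 and 36 fragments, and the weak promoters 36.8 and 51 fragments. Among them 82.7% covered the start (78.1 to 86.6), with downstream summits at 85.3% in mock 1 and 83.7% in mock 2. The 2 mock summits of a member were within 50 bp of each other at 249 sites (66.9%).

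**Figure D4:**
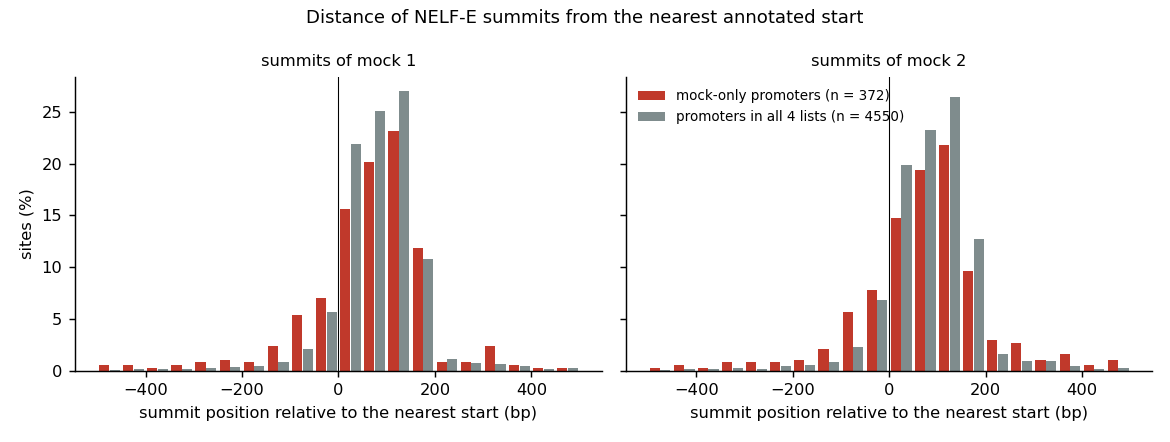
Position of the NELF-E summit relative to the nearest annotated start (x axis, bp, positive downstream, bins of 50 bp) as a percentage of sites (y axis), for the mock-only promoters and the promoters in all 4 lists, with mock 1 summits at left and mock 2 summits at right. Both groups peak between 0 and 150 bp downstream, and 4.30% of the members' mock 2 summits lie beyond 500 bp and are not drawn.

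Promoter motifs were searched from 250 bases before to 50 bases from the start on, for the members, the other promoter groups and all 23697 annotated starts. The Inr was TCAGTT or TCAGTC or TCATTT or TCATTC starting between positions -7 and 3, the TATA box TATAAA or TATATA between -45 and -20, and the TCT motif CCTTTT or CCTTTC or TCTTTT or TCTTTC between -5 and 3. The Pause button was GCGAACG or GCGATCG or GCGGACG or GCGGTCG or TCGAACG or TCGATCG or TCGGACG or TCGGTCG between 10 and 45. These were read on the gene's own strand. Anywhere on either strand, GAGA was GAGAG, DRE was TATCGATA, Ohler 1 was GGTCACAC, Ohler 6 was GTATATTT or GTATTTTT and the E-box was CAGCTG. No word lies inside a word of another motif, though neighbouring matches can share bases.

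The Inr was found at 56 members (15.1%, 11.8 to 19.0), at 12.4% of the promoters in all 4 lists (11.4 to 13.3) and at 9.0% of all starts. Among the weak promoters in all 4 lists it was found at 15 (4.89%, 2.98 to 7.90), and among the 574 promoters of both mock lists and 1 siAGO2 list at 40 (6.97%, 5.16 to 9.35). The interval of the members overlapped neither of these, but the share rests on which libraries choose the promoters. Without mock 2 it was 9.01% of 921 promoters and with the replicate 1 libraries alone 8.05% of 1416, both inside the interval of the promoters in 1 siAGO2 list. Some of the Inr promoters were those of CG13654, Polr1H, Lip4, dpp, inv, eater and Wnt2.

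GAGA was found at 36.0% of the members (31.3 to 41.0), 24.4% of the weak promoters in all 4 lists (20.0 to 29.5), 28.9% of those in 1 siAGO2 list (25.4 to 32.8), 38.5% of the promoters in all 4 lists (37.1 to 39.9) and 32.4% of all starts. The TATA box was at 25 members (6.72%, 4.60 to 9.73), at 4.53% of the promoters in all 4 lists and at 9.35% of all starts. The Pause button was at 22 members (5.91%), at 6.95% of the promoters in all 4 lists and at 3.60% of all starts. For these 2 motifs the intervals of the members and of the promoters in all 4 lists overlapped or met.

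Motifs of broadly expressed genes were also present. DRE was at 50 members (13.4%), at 12.8% of the promoters in all 4 lists and at 6.77% of all starts. Ohler 1 was at 38 members (10.2%, 7.53 to 13.7), at 14.9% of the promoters in all 4 lists (13.9 to 16.0) and at 5.63% of all starts. It was at 11.7% of the promoters in 1 siAGO2 list (9.30 to 14.6), an interval that overlaps that of the members. Ohler 6 was at 14.5% of the members, 16.5% of the promoters in all 4 lists and 11% of all starts. The E-box was at 24.7% of the members (20.6 to 29.4), at 19.1% of the promoters in all 4 lists (18.0 to 20.3) and at 16.5% of all starts, but also at 24.6% of the promoters in 1 siAGO2 list (21.2 to 28.2). TCT was rare, at 9 members (2.42%), 1.25% of the promoters in all 4 lists and 1.02% of all starts.

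**Figure D5:**
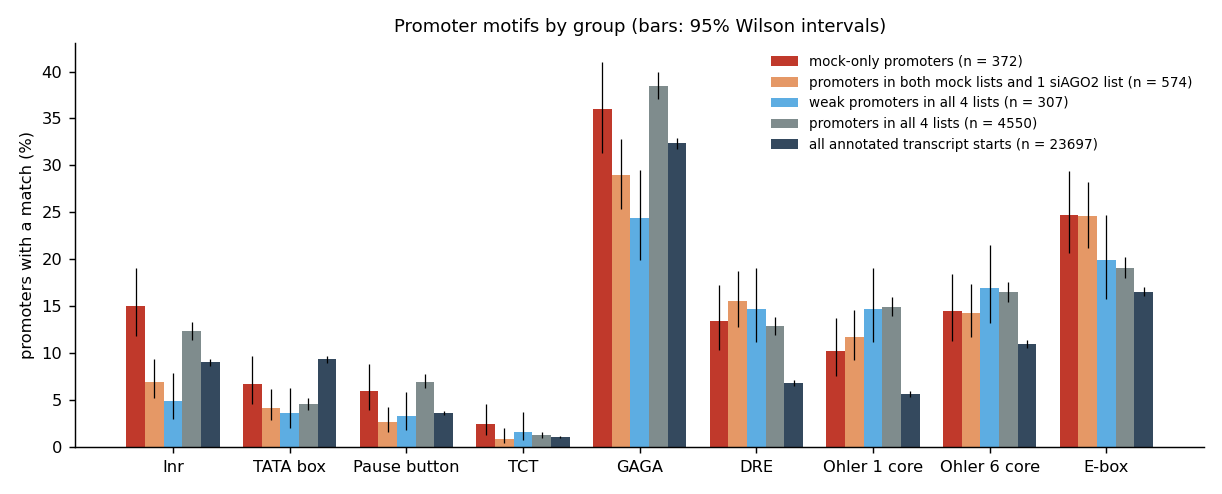
Percentage of promoters (y axis) with at least 1 match to each motif (x axis), for the mock-only promoters, the promoters of both mock lists and 1 siAGO2 list, the weak promoters in all 4 lists, the promoters in all 4 lists and all annotated starts. Lines are 95% Wilson intervals, which cover counting error only, and the Inr is at 15.1% of the mock-only promoters and 4.89% of the weak promoters in all 4 lists.

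The members were therefore of mixed promoter type. An Inr, TATA box or Pause button without DRE or an Ohler motif was found at 77 members (20.7%, 16.9 to 25.1), against 7.17% of the weak promoters in all 4 lists (4.78 to 10.6), 17.0% of all promoters in all 4 lists (15.9 to 18.1), 11.3% of those in 1 siAGO2 list (8.98 to 14.2) and 17.6% of all annotated starts, a share inside the members' interval. DRE or an Ohler motif without these was found at 106 members (28.5%, 24.1 to 33.3), against 35.8% of the weak promoters (30.7 to 41.3), 32.5% of all promoters in all 4 lists (31.2 to 33.9) and 18.2% of all annotated starts. Both kinds stood together at 15 members, and 174 had neither.

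Both of these types were kept by the same distance limits. The median nearest gene of the 77 was 9177 bp long, against 2714.5 bp for the 106. Their summits stood 41.0 and 31.0 bp downstream of the start in mock 1 and mock 2, against 104.5 and 105 bp. Only 22.1% of the 77 had a divergent neighbour (14.3 to 32.5), a start on the opposite strand within 1000 bp upstream, against 43.4% of the 106 (34.4 to 52.9). The median folds were 3.92 and 3.93 for the 77 and 4.32 and 4.07 for the 106 in mock 1 and mock 2.

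Divergent neighbours were found at 141 members (37.9%, 33.1 to 42.9), at 44.8% of the promoters in all 4 lists (43.4 to 46.3) and at 54.4% of the weak ones among them (48.8 to 59.9). The rule leaves out sites near a knockdown peak, and so those beside a listed neighbouring promoter, while the promoters in all 4 lists pass no such limit. With no minimum distance the share was 41.2%, and at over 1000 bp it was 28.7%. Starts of more than 1 gene were within reach at 30.4% of the members (25.9 to 35.2) and at 43.6% of the promoters in all 4 lists (42.1 to 45), a share to which the same limit applies. The GC content of the searched window had a median of 37.0% in the members and 39.0% in the promoters of all 4 lists. It was 36.7% in the weak promoters in all 4 lists and 36.3% in those of both mock lists and 1 siAGO2 list. The median length of the nearest gene was 3627.5 bp, against 4394.5 bp in the promoters of all 4 lists and 2507 bp in the weak ones.

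The 2 promoters found only in the knockdown lists were near Tdh and prage. At Tdh the folds were 5.44 in siAGO2 1 and 3.46 in siAGO2 2, and the nearest mock peak was 5389 bp away. At prage they were 3.93 and 3.90, with a mock peak 306 bp away. The gene prage also had a mock-only promoter, with folds of 3.29 in mock 1 and 2.59 in mock 2, so it stood on both sides of the rule.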

How the data were processed

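NELF-E ChIP-seq peak lists of 2 siAGO2 and 2 mock libraries of Kc167 cells were used, each called by the authors on a single replicate against its input. Per the submitters' notes and the methods, single-end reads were trimmed with cutadapt (1.10 in the notes), aligned to dm6 with Bowtie2, freed of duplicates with Picard (2.11.0 in the notes) and called with MACS2 2.1.1.20160309. The genome size and fragment length used for NELF-E are not given in the sources used here. The deposited score is a whole number that follows the −log10 q-value, the deposited fold is a ratio of summit pileup to local background, and the authors' −log10 p-value, −log10 q-value and distance to the summit are given for each peak. Only peaks past a q-value of about 0.05 are listed, and no column of other samples was present. The lists hold no counts, so the count model that the study applied (DiffBind) was not run, and no test between treatments was made. With that model the paper reported more genes that gained NELF-E after AGO2 depletion than genes that lost it. That is a different measure from the presence of a peak in a list.

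Sites, distances and motifs were computed with Python 3.11.15, pandas 2.3.3, numpy 2.4.6 and scipy 1.17.1, with the gene models of Ensembl release 115 (BDGP6.54, transposable element entries left out) and the RefSeq Release 6 genome. Peaks overlapping by at least 1 bp formed a site, which took the values of its highest-scoring peak in each list. Percentiles rank the scores within a list. Every member was kept, with no filter on low values. Relative depth is the smallest background value that 1% or more of the peaks in a list have in common, and all pileups were recovered as whole fragments, after division by a scale of 0.919 in mock 1. Recovery and site selection were tested on simulated data. The site rule, the members and the gene lists were chosen with earlier results of these data known. Genes named are the 25 with the highest mean percentile in the mock lists, those in the gene lists, and the 3 on each side of each distance limit. Other named genes were chosen after their values were seen. Of 464 listed gene names 436 matched the annotation. Printed sequences end 50 bases from the start on, where 60 had been planned, and none is shown from chromosome arm 2R. Shares carry 95% Wilson intervals, which cover counting error only.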

Additional observations from a re-analysis of the deposited data

How the results depend on the processing

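No paired analysis was possible because the promoters come from the presence of peaks and not from a test, so a replicate block has no fit to enter. The 372 mock-only promoters, the 2 knockdown-only promoters and the 6.68% share were computed under 18 alternatives. Settings of merging, overlap and start class moved the counts of mock-only promoters by less than 1.5 times. Knockdown-only promoters numbered 1 within 250 bp of a start, 1 with the distance taken from the mock summit and 1 at over 1000 bp from the other group's peaks, where the share of mock-only promoters was 5.01%. With no minimum distance they numbered 9 and the share was 7.97%, and within 1500 bp of a start the share was 7.51%.

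Score and depth settings changed more. With lists of equal length there were 112 mock-only promoters (2.35%) and 63 knockdown-only promoters. With a score of at least 50 in all lists the share was 7.92% and knockdown-only promoters numbered 7, and with that score asked of the mock lists only there were 201 (3.92%) and 17. The first setting held 97 and the last 201 of the 372 members. For lists of equal length both mock lists and the siAGO2 2 list were shortened, and the part of each in the lower number was not tested.

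Leaving out 1 library gave 449 to 921 mock-only promoters, shares of 7.73 to 14.1% and 7 to 63 knockdown-only promoters. The count passed 1.5 times the main one without mock replicate 2 (921) and without siAGO2 replicate 2 (714). The replicate 1 libraries alone gave 1416 (21.6%) and 25, and the replicate 2 libraries alone gave 640 (11%) and 234. Of 330 values for folds, percentiles, positions, motifs and gene classes under these alternatives, 301 stayed within a set margin of the reported value and 29 moved. For shares the margin was the Wilson interval. For median folds and percentiles it was the standard deviation of the mock 1 and mock 2 medians, which is no error of the value. By that margin a mock 1 median percentile of 31.2 with scores of at least 50, against 24.6, was counted as not moved. The Inr share was 9.01% without mock replicate 2, 10.6% without siAGO2 replicate 2, 8.05% with the replicate 1 libraries alone and 11.1% with scores of at least 50, against 15.1%. Without mock replicate 2 the Pause button was at 3.69%, against 5.91%, and TCT at 0.977%, against 2.42%. GAGA was at 30.8% with a score of at least 50 asked of the mock lists, against 36.0%. The shallow siAGO2 lists limit what an absent peak can show, and 14 of the 25 highest-ranking promoters were members under all 18 alternatives. Some of these alternatives cut on the same score that sets the rank.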
